A study of Mus musculus with 36 samples.

Results

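The 46 genes described here encode the digestive enzymes of the lysosome, its membrane proteins, subunits of the pump that acidifies it, and the transcription factors Tfeb and Tfe3. They were chosen by gene symbol, and each symbol matched 1 mouse Ensembl identifier among the 55421 genes of the deposited count table. By role they comprise 9 cathepsins, 3 other lysosomal proteases, 10 glycosidases, 1 sulfatase, 7 genes of lipid handling, 7 membrane proteins, 6 proton pump subunits, progranulin and 2 transcription factors.

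Transcripts were sequenced from slices of the right hippocampus of 18 mice aged 16 months. Wild-type mice (WT) were C57BL/6, and T41B mice carried the Thy1-hAPPLond/Swe transgene of Line 41, human APP with the London and Swedish mutations. The Thy1 cassette drives this transgene mainly in neurons, so the model adds mutant APP to neurons and leaves the mouse App gene in place. From 13 months of age, every mouse received either vehicle (VEH) or BD10-2, a small molecule that partly activates TrkB and TrkC, which are receptors for neurotrophins, by oral gavage for 3 months. A slice was then given theta-burst stimulation (TBS) or a sham procedure of the same length and frozen at once. Theta-burst stimulation is a patterned electrical stimulus used to induce long-term potentiation, and it was delivered in 3 trains; a train had 10 bursts 200 ms apart, and each burst had 4 stimuli (100 Hz). The vehicle groups held 4 WT and 4 T41B mice for each procedure, and the BD10-2 groups held 3 WT and 5 T41B mice for each. In 14 mice both a sham and a stimulated slice were sequenced, so these groups share mice. Under BD10-2 the WT sham slices came from Mouse1565, Mouse1571 and Mouse1590 and the stimulated ones from Mouse1565, Mouse1571 and Mouse1586. The T41B sham slices came from Mouse1557, Mouse1563, Mouse1564, Mouse1570 and Mouse1592 and the stimulated ones from Mouse1563, Mouse1564, Mouse1570, Mouse1572 and Mouse1592. The replicate is the mouse throughout, and values are given in the order of mouse numbers.

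Lysosomes degrade proteins, glycans and lipids delivered by endocytosis, phagocytosis and autophagy. Their hydrolases work at an acidic pH, which is maintained by the vacuolar proton ATPase, a multi-subunit pump in the limiting membrane. In the brain all cells have lysosomes, and those of microglia, the resident phagocytes, are known to be rich in cathepsins and in Cd68. Tfeb and Tfe3 are transcription factors that bind the sequence CACGTG, and many lysosomal genes are among their known targets.

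The 36 libraries held 11597555 to 28125842 expected counts, with a median of 18082415. Thy1, whose promoter cassette is part of the transgene, was 255 to 400 CPM (read counts scaled by the library total, and in all later sections by the TMM-adjusted total) in 16 WT libraries, and 20 T41B libraries had 880 to 2412 CPM, so the genotypes did not overlap. The lowest T41B value, 880 CPM, belonged to Mouse1592, which has 2 libraries labelled stimulated; this one also had 315 CPM of Ctsd, 13.0 of Cst7 and 110 of Il1b, against 540, 36.5 and 343 CPM in the other. Values given for the stimulated slice of Mouse1592 are sums over both. Counts and calls that change without its low-Thy1 library are given both ways. The 2 sham libraries of Mouse1557 (T41B, BD10-2) also differed, with 682 and 459 CPM of Ctsd and 38.0 and 19.8 CPM of Cst7. Their Thy1 was 1082 and 1061 CPM, and they were summed too. Markers of neurons, astrocytes and microglia were detected, while none of 6 markers of blood monocytes and neutrophils passed the low-count filter. In bulk RNA, fewer cells of a type and less RNA per cell cannot be told apart.

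All 46 lysosomal genes passed the low-count filter. Atp6v0d2 passed only through its counts in T41B mice, and would not have passed on stimulated slices alone or on vehicle mice alone, so no test is given for it, and the counts of called genes below cover the other 45. Levels of different genes were compared per kilobase of exon in sham slices of vehicle-treated WT mice. Psap, the precursor of the saposins that help degrade sphingolipids, was the most abundant, at 320 CPM per kilobase. The aspartic protease Ctsd came next, at 78.3 CPM per kilobase, followed by the membrane glycoprotein Lamp1 at 63.9. The pump subunits Atp6v1b2 (58.7), Atp6ap1 (55.9), Atp6v1a (55.5) and Atp6v0d1 (53.6) lay close together, near the sulfatase Ids (57.8) and the glycosidase Gaa (55.6), on the same scale. Ctsh at 1.16 and Ctsc at 1.13 CPM per kilobase stood near the bottom, and Atp6v0d2 had no counts in this group. The cathepsins thus spanned nearly the whole range of levels, whereas 4 of the 6 pump subunits were within a narrow band.

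Atp6v1a, a pump subunit called in no comparison of the main fit, was added to the printed promoters after its values were seen. Its promoter is printed with those of 4 genes whose calls are described below, 1 from each of 4 roles. Each is the 250 bases before the RefSeq transcription start (build GRCm38.p6), 5′ to 3′ on the gene's own strand, with CACGTG in capitals. Ctsd lies at chr7:142387828-142388077 (minus strand), Man2b1 at chr8:85083019-85083268 (plus), Cd63 at chr10:128909095-128909344 (plus), Tcirg1 at chr19:3907134-3907383 (minus, the most upstream of 3 starts) and Atp6v1a at chr16:44139260-44139509 (minus).
Ctsd: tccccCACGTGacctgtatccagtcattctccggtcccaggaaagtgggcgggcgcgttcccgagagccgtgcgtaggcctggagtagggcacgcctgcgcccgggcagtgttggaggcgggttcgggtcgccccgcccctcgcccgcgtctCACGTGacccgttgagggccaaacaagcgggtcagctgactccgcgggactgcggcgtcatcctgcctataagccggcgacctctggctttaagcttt
Man2b1: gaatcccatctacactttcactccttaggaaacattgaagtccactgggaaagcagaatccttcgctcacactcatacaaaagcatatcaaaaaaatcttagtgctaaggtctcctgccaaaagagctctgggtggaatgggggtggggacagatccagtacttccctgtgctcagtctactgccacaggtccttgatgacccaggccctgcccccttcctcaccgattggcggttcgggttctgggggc
Cd63: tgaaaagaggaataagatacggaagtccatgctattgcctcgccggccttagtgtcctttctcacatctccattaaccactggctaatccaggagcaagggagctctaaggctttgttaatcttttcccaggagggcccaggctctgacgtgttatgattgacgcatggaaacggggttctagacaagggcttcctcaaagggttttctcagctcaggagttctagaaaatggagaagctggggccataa
Tcirg1: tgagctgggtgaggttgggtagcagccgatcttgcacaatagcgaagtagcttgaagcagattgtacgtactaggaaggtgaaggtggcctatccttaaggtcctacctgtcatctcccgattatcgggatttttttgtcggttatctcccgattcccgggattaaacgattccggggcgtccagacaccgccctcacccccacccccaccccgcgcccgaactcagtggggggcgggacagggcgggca
Atp6v1a: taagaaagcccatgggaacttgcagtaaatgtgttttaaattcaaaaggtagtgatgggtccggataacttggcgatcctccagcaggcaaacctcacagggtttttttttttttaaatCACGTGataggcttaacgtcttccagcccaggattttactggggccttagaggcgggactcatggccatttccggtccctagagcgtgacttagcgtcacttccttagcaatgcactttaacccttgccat

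CACGTG, which reads the same on both strands, occurs 2 times in the Ctsd stretch, with first bases at positions -245 and -98 from the start, and once in that of Atp6v1a, at -131. The stretches of Man2b1, Cd63 and Tcirg1 do not hold these letters. Of the 46 genes, 40 were in the RefSeq promoter table, which also covers the first 50 bases of the transcript. In this window of 300 bases, 13 of 40 (32.5%) held CACGTG, against 8.09% of 27025 genes in the table. The longer TCACGTGA, which contains CACGTG and also reads the same on both strands, was in 6 of 40 (15%) against 1.13% of all genes. A match describes the letters and is not evidence of a bound site.

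The first question was which lysosomal genes differ between T41B and WT mice. In sham slices of vehicle-treated mice 22 of the 45 were higher and 1 was lower in T41B (edgeR adjusted p under 0.05), where 5.0% of all 19478 genes tested were higher and 1.24% lower, 6.24% in all. In stimulated slices under vehicle 19 were higher and 0 lower (4.74% and 1.05% of all genes, 5.79% in all). Under BD10-2, 22 were higher and 1 lower in sham slices (4.31% and 1.14%, 5.45% in all), and 24 were higher and 1 lower in stimulated slices (8.19% and 2.36%, 10.6% in all). Without 1 mouse the calls among the 45 genes numbered 19 to 24, 15 to 21, 19 to 23 and 19 to 26 in these 4 comparisons, and the share of all genes called moved more. In vehicle sham slices it was 3.12%, 4.09%, 2.86% and 3.66% without Mouse1509, Mouse1513, Mouse1551 and Mouse1553, and 10.6% without Mouse1510. In vehicle stimulated slices it was 3.49% without Mouse1551. Under BD10-2 it was 2.91%, 3.01% and 2.43% in sham slices without Mouse1565, Mouse1571 and Mouse1590, and 7.02% and 5.32% in stimulated slices without Mouse1564 and Mouse1565. The median log2 fold change of the 45 genes was 0.31, 0.26, 0.38 and 0.45 in the 4 comparisons with every mouse, beside 0.00, -0.03, 0.01 and -0.02 for all genes. The 4 comparisons use different slices, but sham and stimulated slices come largely from the same mice.

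The genes higher in T41B were spread unevenly over the roles. In all 4 comparisons 18 genes were higher in T41B, a class that held 1.99% of all genes: Ctsa, Ctsb, Ctsc, Ctsd, Ctsh, Ctsl, Ctss, Ctsz, Lgmn, Hexa, Gusb, Man2b1, Npc2, Cd63, Cd68, Laptm5, Tcirg1 and Grn. These are 8 of 9 cathepsins but 3 of 10 glycosidases, 1 of 7 lipid handling genes and 1 of 5 pump subunits. Another 17 genes, among them 4 pump subunits and 6 lipid handling genes, were called in none of the 4. For 9 of the 18 (Cd68, Ctsd, Ctss, Ctsz, Grn, Hexa, Laptm5, Man2b1 and Npc2) every one of the 4 calls held in each alternative analysis that was run, including the omission of each mouse. With batch as a term, 11 genes instead of 19 were higher in stimulated slices under vehicle (3.92% of all genes called), the calls lost being those of Cd63, Ctsa, Ctsb, Ctsh, Ctsl, Gusb, Lgmn and Tfe3. The same term ended 6 calls in sham slices under vehicle (Ctsb, Lamp1, Mcoln1, Scpep1, Tcirg1 and Tpp1), those of Lamp1 and Scpep1 in BD10-2 sham slices, and that of Scpep1 in BD10-2 stimulated slices. Without the library of Mouse1592 with low Thy1, Lipa and Glb1 were also called higher in BD10-2 stimulated slices (0.38 and 0.42 on the log2 scale, edgeR adjusted p = 0.0366 and 0.0297), where 12.1% of all genes were then called.

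**Figure D1:**
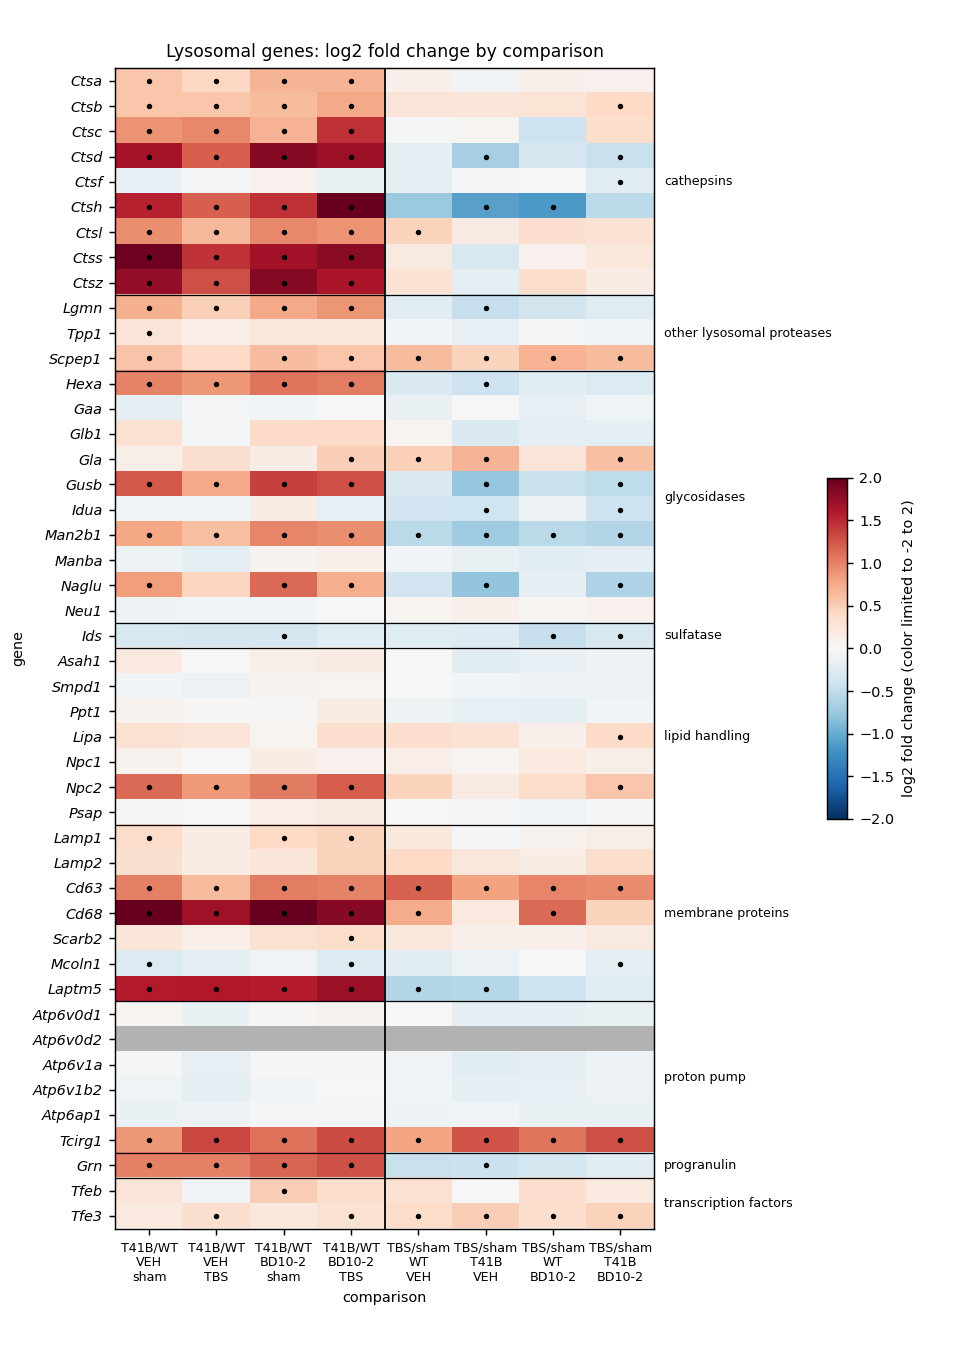
Log2 fold change of 45 of the 46 genes (rows, by role) in the 4 comparisons of T41B with WT mice and the 4 of stimulated with sham slices (columns). Red is higher and blue lower, with color limited to -2 to 2, a black dot marks an edgeR adjusted p under 0.05, and the grey row is Atp6v0d2, which was not tested. The left columns are mostly red among cathepsins and pale in lipid handling and the proton pump, and the right columns hold both colors.

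Markers of microglia moved the same way as these genes. Of 12 microglia markers, 11, 8, 10 and 12 were higher in T41B in the 4 comparisons in the order above, and 0 were lower. Their summed level in sham slices under vehicle was 545 to 1085 CPM in T41B mice and 250 to 344 CPM in WT mice, and under BD10-2 it was 715 to 1002 CPM against 279 to 330 CPM. In stimulated slices the sums were 332 to 497 CPM in T41B against 117 to 201 CPM in WT mice under vehicle, and 483 to 704 CPM against 147 to 176 CPM under BD10-2. Of 6 neuron markers, 1, 2, 2 and 0 were lower in T41B in that order, and of 6 astrocyte markers 2, 2, 2 and 5 were higher. Of 3 choroid plexus markers 1 was higher in vehicle sham slices and 1 lower in vehicle stimulated slices, and 1 of 3 border macrophage and 1 of 2 oligodendrocyte precursor markers were higher in BD10-2 stimulated slices. The part of cell composition in the lysosomal differences was not tested.

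Among the cathepsins, the proteases that carry out most protein breakdown in lysosomes, Ctsd had 168, 156, 184 and 229 CPM in the 4 WT sham slices under vehicle (Mouse1509, Mouse1513, Mouse1522 and Mouse1524). The 4 T41B sham slices held 423, 757, 547 and 620 CPM (Mouse1510, Mouse1551, Mouse1553 and Mouse1579). The ranges do not overlap, and the T41B mean was 3.19 times the WT mean. That is a log2 fold change of 1.67 ± 0.18 (SE), with an edgeR adjusted p of 4.61e-07. Under BD10-2 the sham levels of Ctsd were 193, 174 and 179 CPM in WT mice and 557, 752, 615, 552 and 743 CPM in T41B mice, again without overlap (log2 fold change 1.82 ± 0.20 SE, edgeR's adjusted p = 6.49e-07).

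Ctsh, an aminopeptidase of low abundance, was 3.68, 4.97, 5.85 and 6.35 CPM in WT and 9.88, 19.5, 14.99 and 16.1 CPM in T41B sham slices under vehicle. The log2 fold change was 1.54 ± 0.23 (SE; edgeR's adjusted p = 6.15e-05), and the lowest T41B mouse, Mouse1510, was above every WT mouse. Ctss and Ctsz, proteases known for high expression in microglia and macrophages, rose by a log2 fold change of 1.95 (SE 0.22) and 1.76 (SE 0.20) in the same comparison. Ctsc (0.91), Ctsl (0.94), Ctsb (0.56) and Ctsa (0.56) were also higher there. When only the groups compared were fitted, Ctsa was 0.55 and lost this call (edgeR adjusted p = 0.0541). With batch as a term Ctsb was 0.32 in these slices and lost its call (edgeR adjusted p = 0.303), as it did in stimulated slices under vehicle (0.30 instead of 0.55, edgeR adjusted p = 0.171). In stimulated slices under vehicle the call of Ctsa was lost without Mouse1509 (0.0542), Mouse1513 (0.0948), Mouse1522 (0.0662) or Mouse1551 (0.0791), and in sham slices under BD10-2 that of Ctsc without Mouse1565 (0.0805) or Mouse1590 (0.139). Ctsf was the exception, with log2 fold changes of -0.17, -0.03, 0.08 and -0.13 in the 4 comparisons and no call. Ctsf was 33.3 ± 3.25 CPM in WT and 29.7 ± 1.54 CPM in T41B sham slices under vehicle (SD, n = 4 each).

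Lgmn, the asparaginyl endopeptidase that cuts the precursors of several cathepsins, was 65.6, 65.4, 63.1 and 77.2 CPM in WT and 81.0, 137, 115 and 111 CPM in T41B sham slices under vehicle. Every T41B value exceeded every WT value, and the log2 fold change was 0.71 ± 0.13 (SE; edgeR's adjusted p = 0.000431). After stimulation under vehicle the genotype call of Lgmn (0.48 ± 0.13 SE, edgeR's adjusted p = 0.0178) was lost without Mouse1509 (0.0753), Mouse1513 (0.0899) or Mouse1522 (0.0511). Scpep1, a serine carboxypeptidase, was higher in T41B in 3 of 4 comparisons, with log2 fold changes of 0.58, 0.62 and 0.55, and each of these 3 calls was lost with the mouse as a random replicate block (limma-voom adjusted p = 0.102, 0.0624 and 0.0556). With batch as a term the 3 values of Scpep1 were 0.31, 0.56 and 0.40, and none was called (edgeR adjusted p = 0.633, 0.0723 and 0.174). The first was also lost without Mouse1509 (0.0726), Mouse1513 (0.142), Mouse1522 (0.0777), Mouse1551 (0.0503) or Mouse1553 (0.155), the second without Mouse1563 (0.0588), Mouse1565 (0.115), Mouse1571 (0.107) or Mouse1590 (0.0967), and the third without Mouse1563 (0.0615), Mouse1564 (0.144), Mouse1565 (0.233) or Mouse1586 (0.105). Tpp1, a tripeptidyl peptidase mutated in a childhood lipofuscinosis, was called in sham slices under vehicle (0.25 ± 0.07 SE, edgeR's adjusted p = 0.0299), with 0.14, 0.23 and 0.21 in the other comparisons. The Tpp1 call was lost with batch as a term (0.225) and without Mouse1509 (0.0987), Mouse1513 (0.0733), Mouse1522 (0.103), Mouse1551 (0.21) or Mouse1579 (0.0624).

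**Figure D2:**
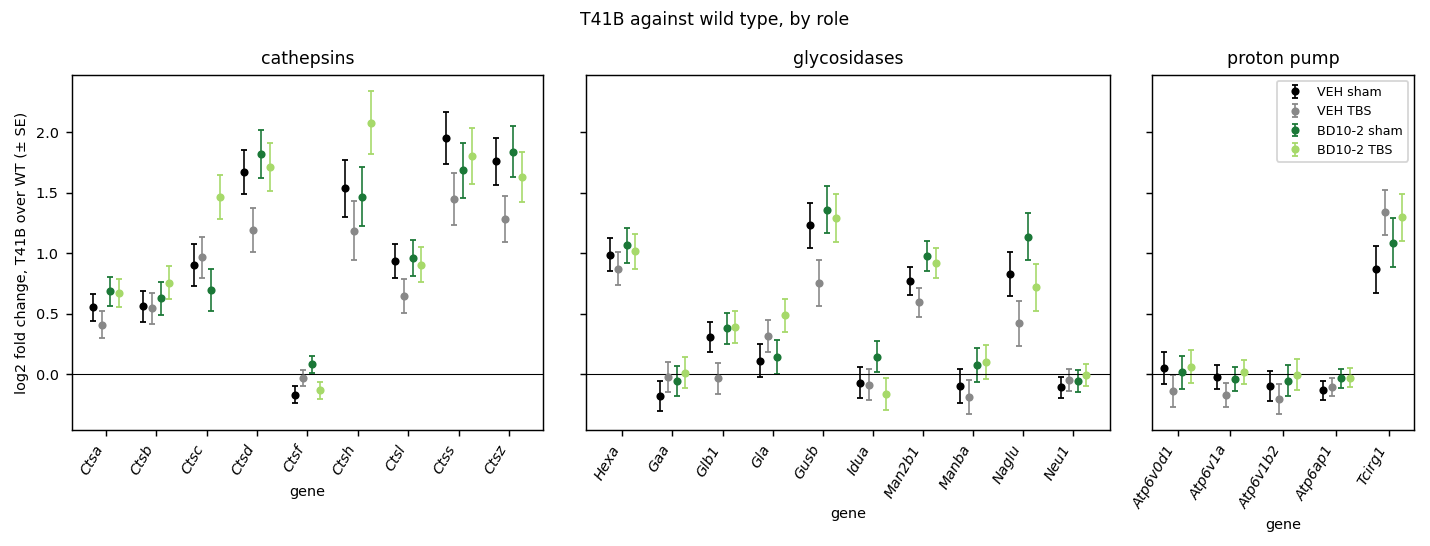
Log2 fold change of T41B over WT mice for each cathepsin, glycosidase and proton pump subunit except Atp6v0d2, in the 4 combinations of treatment and procedure, with bars of 1 SE. Every cathepsin but Ctsf lies above 0, Gaa, Idua, Manba and Neu1 lie around 0, and Tcirg1 stands apart from the other plotted pump subunits.

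The glycosidases, which remove sugars from glycoproteins, glycolipids and glycosaminoglycans, were divided. Of 10, the number higher in T41B was 4, 3, 4 and 5, and none was lower. Man2b1, the lysosomal alpha-mannosidase, was 39.8, 37.7, 37.8 and 45.9 CPM in WT and 59.7, 78.3, 59.95 and 77.4 CPM in T41B mice (vehicle, sham; log2 fold change 0.77 ± 0.12 SE, edgeR's adjusted p = 5.75e-05). Gusb, the beta-glucuronidase, was 6.70, 7.78, 8.11 and 11.4 CPM in WT and 16.1, 22.1, 19.8 and 21.99 CPM in T41B mice (1.23 ± 0.19 SE, edgeR's adjusted p = 5.09e-05). For both genes all T41B values were above all WT values. Hexa, the alpha subunit of beta-hexosaminidase and the Tay-Sachs disease gene, was higher by a log2 fold change of 0.99, 0.87, 1.07 and 1.02 in the 4 comparisons. Naglu was higher in 3, the call in BD10-2 stimulated slices being lost without Mouse1565 (0.0714) or Mouse1571 (0.0885). Gla was called higher in those slices only, a call lost without Mouse1564 (0.0615), Mouse1565 (0.0872), Mouse1571 (0.0685) or Mouse1586 (0.055). Among stimulated vehicle slices the genotype call of Gusb was lost without Mouse1513 (0.0503) or Mouse1551 (0.0918).

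The other 5 glycosidases (Gaa, Glb1, Idua, Manba and Neu1) were called in no genotype comparison of the main fit. Gaa, the acid alpha-glucosidase that breaks down glycogen, was 266 ± 53.7 CPM in WT and 235 ± 16.5 CPM in T41B sham slices under vehicle (SD, n = 4 each). Neu1, the lysosomal sialidase, was 35.3 ± 1.86 CPM against 32.8 ± 2.66 CPM, with log2 fold changes of -0.11, -0.05, -0.06 and -0.00 in the 4 comparisons. Glb1, the beta-galactosidase, had log2 fold changes of 0.31, -0.03, 0.38 and 0.39, with edgeR adjusted p of 0.149, 0.932, 0.0833 and 0.0514. With the mouse as a random replicate block Glb1 was called in BD10-2 sham slices (limma-voom adjusted p = 0.0344). Without the low-Thy1 library of Mouse1592 it was called in BD10-2 stimulated slices (0.42, edgeR adjusted p = 0.0297).

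Ids, the iduronate sulfatase that starts heparan sulfate breakdown, went the other way. Its level in WT sham slices was 283, 284, 286 and 327 CPM under vehicle and 258, 288 and 303 CPM under BD10-2. T41B sham slices held 260, 187, 235 and 263 CPM under vehicle and 245, 238, 209, 194 and 221 CPM under BD10-2, below all WT mice of the same treatment. The difference was called under BD10-2 (log2 fold change -0.35 ± 0.11 SE, edgeR's adjusted p = 0.0449) but not under vehicle (-0.32 ± 0.10 SE, edgeR's adjusted p = 0.0604). The BD10-2 call was lost without Mouse1564 (0.101), Mouse1570 (0.114), Mouse1571 (0.17), Mouse1590 (0.206) or Mouse1592 (0.0714). In stimulated slices under vehicle Ids was not called in the main fit but was with the replicate block (limma-voom adjusted p = 0.0448).

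Of the 7 genes of lipid handling, only Npc2 was called higher in T41B in the main fit, in all 4 comparisons. Npc2 is the soluble carrier that takes cholesterol out of the lysosome together with the membrane protein Npc1. In sham slices under vehicle Npc2 was 29.999, 28.1, 28.04 and 33.6 CPM in WT and 47.4, 85.2, 69.9 and 59.2 CPM in T41B mice, with no overlap (log2 fold change 1.13 ± 0.18 SE, edgeR's adjusted p = 8.93e-05). Its partner Npc1 was 93.2 ± 3.53 CPM in WT and 97.9 ± 11.6 CPM in T41B mice (SD, n = 4 each), and its log2 fold changes were 0.07, -0.00, 0.16 and 0.08. Lipa, the acid lipase that frees cholesterol from its esters, was 10.4, 13.5, 10.8 and 11.1 CPM in WT against 13.9, 16.2, 13.1 and 13.4 CPM in T41B mice, and it was not called (0.31 ± 0.13 SE, edgeR's adjusted p = 0.152). In BD10-2 stimulated slices Lipa was 0.34 and not called (edgeR adjusted p = 0.0944). Lipa was called there without the low-Thy1 library of Mouse1592 (0.38, edgeR adjusted p = 0.0366). Asah1, Smpd1, Ppt1 and Psap had log2 fold changes between -0.12 and 0.19 in the 4 comparisons.

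Of the 7 membrane proteins 4, 3, 4 and 5 were higher in T41B, and Mcoln1 was lower in the first and last comparison. Cd68, a heavily glycosylated protein of phagocyte lysosomes, was 5.57, 6.20, 7.04 and 6.93 CPM in WT and 23.3, 38.9, 29.7 and 30.5 CPM in T41B sham slices under vehicle. The ratio of means was 4.75, and the log2 fold change 2.25 ± 0.22 (SE; edgeR's adjusted p = 1.14e-07). Under BD10-2 it was 5.63, 6.63 and 4.98 CPM against 30.5, 41.3, 30.5, 24.004 and 34.6 CPM (2.49 ± 0.24 SE, edgeR's adjusted p = 6.56e-08). Cd63, a tetraspanin of late endosomes and lysosomes, was 22.5, 23.6, 28.8 and 31.8 CPM in WT and 43.9, 62.7, 56.6 and 50.8 CPM in T41B mice under vehicle (1.004 ± 0.15 SE, edgeR's adjusted p = 6.59e-05). Among stimulated vehicle slices the genotype call of Cd63 (0.63 ± 0.15 SE, edgeR's adjusted p = 0.0083) was lost with batch as a term (0.193) or without Mouse1551 (0.0516).

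Laptm5, a membrane protein of blood-lineage cells, was higher in each comparison, by log2 fold changes of 1.58, 1.61, 1.57 and 1.73. The 2 major glycoproteins of the limiting membrane differed less: Lamp1 was higher in 3 comparisons (0.37, 0.40 and 0.45), and Lamp2 in none (0.32, 0.15, 0.25 and 0.46). Lamp2 was also the more variable of the pair, with SEs of 0.19 to 0.20 against 0.10 to 0.11 for Lamp1. With batch as a term the first Lamp1 value was 0.22 and the second 0.30, and both calls were lost (edgeR adjusted p = 0.455 and 0.0893). The first Lamp1 call was also lost without Mouse1509 (0.12), Mouse1513 (0.0579), Mouse1522 (0.0583), Mouse1551 (0.151) or Mouse1553 (0.0567), the second without Mouse1565 (0.0778), Mouse1571 (0.0503) or Mouse1590 (0.132), and the third without Mouse1565 (0.0717). Scarb2, the receptor that carries glucocerebrosidase to lysosomes, was called in BD10-2 stimulated slices (0.36 ± 0.10 SE, edgeR's adjusted p = 0.0152), a call lost without Mouse1564 (0.0685) or Mouse1565 (0.155). Mcoln1, the lysosomal calcium channel, fell in sham slices under vehicle (-0.27 ± 0.08 SE, edgeR's adjusted p = 0.0403) and in stimulated slices under BD10-2 (-0.27 ± 0.08 SE, edgeR's adjusted p = 0.0312), and the first was lost with the replicate block (limma-voom adjusted p = 0.0619). With batch as a term the first value of Mcoln1 was -0.14, not called (edgeR adjusted p = 0.666). The first was also lost without Mouse1509 (0.159), Mouse1513 (0.107), Mouse1524 (0.0527), Mouse1551 (0.107) or Mouse1553 (0.223), and the second without Mouse1563 (0.0761), Mouse1564 (0.0987), Mouse1565 (0.182), Mouse1570 (0.0735) or Mouse1571 (0.123).

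Of the 5 pump subunits tested between genotypes 1 was called, Tcirg1. Tcirg1 encodes the a3 form of the membrane-embedded a subunit, known from osteoclasts, and Atp6v0d2 the d2 form of the d subunit, whose common form is Atp6v0d1. Tcirg1 was 11.4, 12.5, 12.6 and 14.1 CPM in WT and 21.5, 28.4, 18.8 and 23.6 CPM in T41B sham slices under vehicle, and each T41B value exceeded each WT value. The log2 fold change was 0.87 ± 0.19 (SE; edgeR's adjusted p = 0.00462), which was lost with batch as a term (0.0964). In the other 3 comparisons it was 1.34, 1.09 and 1.298.

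Atp6v0d2 had 0 counts in all WT sham slices and in the BD10-2 WT stimulated slices, and at most 2 counts in the vehicle WT stimulated slices. In sham slices under vehicle the T41B mice held 0.438, 0.444, 0.691 and 0.840 CPM. Their mean, 0.603 CPM, was at least 3.19-fold higher than the WT floor of 3 counts per sample. Against the same floor the T41B mean of Atp6v0d2 was at least 2.21-fold higher in stimulated slices under vehicle, at least 5.43-fold higher in BD10-2 sham and at least 3.97-fold higher in BD10-2 stimulated slices. These bounds are a description, since the T41B counts are what admitted the gene.

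Atp6v0d1, Atp6v1a, Atp6v1b2 and the accessory subunit Atp6ap1, all common subunits, were called in no genotype comparison, with log2 fold changes between -0.20 and 0.07. Atp6v1a, which carries the catalytic site, was 335 ± 25.7 CPM in WT and 331 ± 18.1 CPM in T41B sham slices under vehicle (SD, n = 4 each). Atp6v0d1 was 96.2 ± 17.8 CPM against 99.6 ± 11.7 CPM. Of 14 other pump subunits tested, 0 were higher in any of the 4 comparisons, and 1 was lower in each of 2.

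Grn encodes progranulin, a secreted and lysosomal protein whose loss causes a lysosomal storage disease. It was 33.1, 31.99, 34.5 and 40.5 CPM in WT and 58.6, 90.05, 58.9 and 73.5 CPM in T41B sham slices under vehicle, without overlap (log2 fold change 1.004 ± 0.16 SE, edgeR's adjusted p = 9.56e-05). The other 3 comparisons gave 1.004, 1.17 and 1.28 for Grn. Tfeb was 6.88, 7.13, 7.86 and 9.76 CPM in WT and 7.69, 10.96, 10.6 and 8.35 CPM in T41B mice, which overlap, and it was called only in BD10-2 sham slices (0.49 ± 0.14 SE, edgeR's adjusted p = 0.033). That call was lost without Mouse1564 (0.0778), Mouse1565 (0.0997), Mouse1570 (0.0875), Mouse1571 (0.165), Mouse1590 (0.0813) or Mouse1592 (0.0518). Tfe3 was called higher in T41B in stimulated slices, by 0.32 under vehicle and 0.31 under BD10-2 (edgeR adjusted p = 0.0101 and 0.0102), against 0.19 and 0.21 in sham slices. The vehicle call of Tfe3 was lost without Mouse1513 (0.0557) or Mouse1553 (0.0606), and the BD10-2 call without Mouse1571 (0.107).

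Summarised as the mean of log2(CPM + 1) over a role, the cathepsins were 5.25 ± 0.11 in WT and 6.27 ± 0.32 in T41B sham slices under vehicle (SD, n = 4 each). The T41B minus WT difference of this score was 1.01, 0.80, 1.06 and 1.13 in the 4 comparisons. For the glycosidases it was 0.36, 0.23, 0.48 and 0.44, and for the proton pump 0.22, 0.17, 0.27 and 0.31. All T41B mice were above all WT mice except for the pump in stimulated slices under vehicle. Without Atp6v0d2 the pump differences were 0.13, 0.14, 0.19 and 0.25, and the genotypes overlapped in both vehicle comparisons. With a pseudocount of 0.1 the pump differences became 0.57, 0.40, 0.62 and 0.63, since the near-zero level of Atp6v0d2 in WT mice then weighs more. Within the 4 batches that hold both genotypes for a procedure, 7 values each from 1 or 2 mice a side, the difference was 0.58 to 1.32 for cathepsins, 0.08 to 0.45 for glycosidases and -0.12 to 0.33 for the pump without Atp6v0d2.

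**Figure D3:**
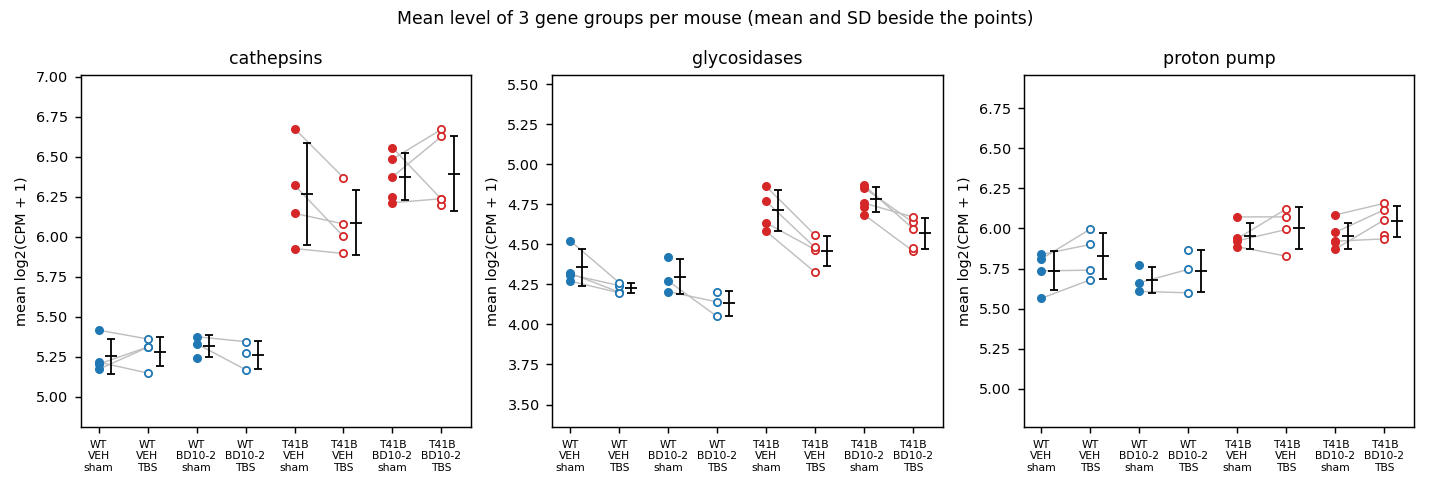
Mean log2(CPM + 1) of the cathepsins, glycosidases and proton pump subunits in each mouse (points) by group, with mean and SD beside them and an equal span on the 3 axes. Filled points are sham and open points stimulated slices, blue is WT and red T41B, and grey lines join slices of one mouse. The T41B mean is 0.80 to 1.13 units higher for cathepsins, and every glycosidase mean is lower after stimulation.

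The next question was how lysosomal transcripts differ after theta-burst stimulation. Under vehicle 7 of the 45 genes rose and 2 fell in WT slices, where 8.21% of all genes rose and 4.1% fell (12.3% in all), and 5 rose and 10 fell in T41B slices (11.7% and 9.83%, 21.5% in all). Under BD10-2, 5 rose and 3 fell in WT slices (6.29% and 2.58%, 8.87% in all), and 8 rose and 8 fell in T41B slices (13.3% and 9.52%, 22.9% in all). The medians of the 45 genes were -0.01, -0.07, -0.07 and -0.06 on the log2 scale, beside -0.01, -0.05, -0.01 and -0.04 for all genes. In all, 10 of the 45 genes rose in at least 1 comparison and 13 fell in at least 1, as did 16.8% and 15.7% of all genes. No lysosomal gene did both, and of all 19478 genes tested 1 did (0.00513%). The 2 genes that fell in vehicle WT slices and the 5 that rose in vehicle T41B slices are near the shares of all genes, and nothing about lysosomal genes as a group is read from these counts.

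These counts depended on the fit. Pairing slices by mouse, with the mouse as a replicate block, gave 10 genes up and 8 down in WT slices under vehicle, where that fit called 20.1% of all genes. It called 19 of the 45 in T41B slices under vehicle (29.5% of all genes), 7 in WT slices under BD10-2 (6.6%) and 21 in T41B slices under BD10-2 (23.9%). Under the block 9 genes were newly called in WT slices under vehicle (Naglu, Hexa, Ctsh, Idua, Grn and Ids lower, Lamp2, Npc2 and Tfeb higher). In the other comparisons the paired fit newly called Atp6v0d1, Tpp1, Ids, Glb1 and Atp6v1a as lower in T41B slices under vehicle, Lgmn as lower in WT slices under BD10-2, and Lamp2, Cd68 and Ctsl as higher and Hexa and Ctsh as lower in T41B slices under BD10-2. Without Mouse1513 or Mouse1524 the count in WT slices under vehicle was 5 each (7.61% and 8.16% of all genes called). Without Mouse1551 that in T41B slices under vehicle was 9 (13.6% of all genes). Without Mouse1565, Mouse1571 or Mouse1590 that in WT slices under BD10-2 was 3, 5 and 5 (3.82%, 4.49% and 4.6% of all genes). In each of these the share of all genes was also lower than with every mouse. Without the library of Mouse1592 with low Thy1, 11 genes rose and 7 fell in T41B slices under BD10-2 (13.9% and 10.6% of all genes). The 3 newly called there were Cd68 (0.51, edgeR adjusted p = 0.0264), Ctsl (0.33, edgeR adjusted p = 0.0381) and Ctsc (0.42, edgeR adjusted p = 0.0282), and Ctsd was no longer called.

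Within the 14 mice with both slices, on the log2(CPM + 1) scale, 6 of the 46 genes were higher in the stimulated slice of every mouse, as were 9.08% of all genes: Cd63, Tcirg1, Tfe3, Gla, Npc2 and Lamp2. In the same mice 7 of the 46 were lower in every stimulated slice, as were 5.34% of all genes: Ctsd, Ctsh, Lgmn, Hexa, Man2b1, Naglu and Ids. The median within-mouse difference ran from 0.98 for Tcirg1 to -0.81 for Ctsh.

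Of 12 microglia markers 7, 8, 7 and 6 fell in the 4 stimulation comparisons (WT and T41B under vehicle, then WT and T41B under BD10-2), and 0, 0, 0 and 1 rose. Csf1r fell by 0.86 and Tmem119 by 2.56 on the log2 scale in WT slices under vehicle. All 4 choroid plexus markers that pass the filter on either procedure alone rose in that comparison, where the summed level of 6 such markers was 13.3 to 1197 CPM after stimulation and 15.1 to 20.2 CPM in sham slices, and 0 of the 4 were called in the other 3. Of 6 astrocyte markers 3, 4, 0 and 3 rose and 0 fell in the same order of comparisons. Of 6 neuron markers 1, 0, 2 and 2 fell, as did 1, 1, 1 and 2 of 2 markers of oligodendrocyte precursors, and 0 of either rose. Of 4 endothelial markers 0, 1, 0 and 1 rose, and of 5 oligodendrocyte markers 0, 1, 0 and 0 fell. None of 2 border macrophage and 3 fibroblast markers was called. The part of these markers in the lysosomal changes was not tested.

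In all 4 stimulation comparisons 4 genes rose (Cd63, Tcirg1, Scpep1 and Tfe3), as did 4.46% of all genes. Cd63 rose from 22.5, 23.6, 28.8 and 31.8 CPM to 54.3, 53.1, 62.3 and 73.0 CPM in vehicle WT mice, in the order of mice given for Ctsd. The log2 fold change was 1.19 ± 0.15 (SE; edgeR's adjusted p = 2.27e-06). In vehicle T41B mice it rose from 43.9, 62.7, 56.6 and 50.8 CPM to 83.2, 112, 99.9 and 80.4 CPM (0.81 ± 0.15 SE, edgeR's adjusted p = 0.000201). Sham and stimulated values of Cd63 did not overlap in any of the 4 comparisons, and its 4 calls held in each alternative analysis that was run. The other 2 log2 fold changes were 0.97 and 0.94.

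Tcirg1 was 18.6, 18.3, 25.4 and 25.02 CPM in stimulated WT and 50.3, 68.8, 53.5 and 48.5 CPM in stimulated T41B slices under vehicle. From the sham values above this is a log2 fold change of 0.79 ± 0.19 (SE; edgeR's adjusted p = 0.00592) and 1.26 ± 0.18 (SE; edgeR's adjusted p = 8.31e-06). The call in WT mice was lost without Mouse1522 (0.0506). Under BD10-2 Tcirg1 rose from 13.05, 13.8 and 12.1 CPM to 28.1, 25.8 and 28.3 CPM in WT mice, and from 24.5, 30.4, 28.3, 29.9 and 25.4 CPM to 81.1, 101, 58.3, 59.6 and 38.1 CPM in T41B mice. All stimulated slices were above all sham slices of the same genotype and treatment, and the lowest stimulated T41B value, 38.1 CPM, was that of Mouse1592. Scaled by their own totals, its library with low Thy1 had 25.2 CPM of Tcirg1 and the other 47.5 CPM. The common pump subunits were not called in the main fit (log2 fold changes -0.23 to -0.01). With the replicate block Atp6v0d1 (0.0278) and Atp6v1a (0.0201) were called, both lower in vehicle T41B slices.

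Scpep1 rose from 9.43, 6.63, 8.80 and 9.36 CPM to 13.6, 11.8, 13.1 and 14.9 CPM in vehicle WT mice (log2 fold change 0.64 ± 0.17 SE, edgeR's adjusted p = 0.0115). In vehicle T41B mice it went from 11.1, 12.6, 14.99 and 12.5 CPM to 15.9, 24.1, 17.3 and 12.5 CPM, which overlap, and the call was marginal (0.45 ± 0.16 SE, edgeR's adjusted p = 0.0499; 0.055 with the replicate block). It was also lost without Mouse1510 (0.112), Mouse1551 (0.385) or Mouse1553 (0.0559). In WT mice under BD10-2 the call was lost with the replicate block (0.0713), and in T41B mice under BD10-2 it held in all analyses. The vehicle WT call was lost without Mouse1513 (0.0537) or Mouse1524 (0.0509), and the BD10-2 WT call without Mouse1565 (0.063), Mouse1571 (0.196) or Mouse1590 (0.0535).

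Tfe3 rose by a log2 fold change of 0.37, 0.49, 0.35 and 0.46 in the 4 comparisons. Its values in vehicle mice went from 29.2, 29.04, 33.1 and 32.1 CPM to 41.7, 36.8, 41.5 and 39.0 CPM in WT, and from 33.9, 35.3, 34.97 and 37.1 CPM to 45.6, 50.4, 55.1 and 47.5 CPM in T41B, without overlap. The call in WT mice under BD10-2 was lost with the replicate block (0.133) and without Mouse1565 (0.0802) or Mouse1590 (0.0557). Tfeb was called in no stimulation comparison of the fit without the block (0.31, -0.01, 0.33 and 0.20), and with the replicate block it was called in vehicle WT slices (0.0384). Tfeb was higher in the stimulated slice of 12 of the 14 mice with both slices.

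Cd68 rose in WT slices, from 5.57, 6.20, 7.04 and 6.93 CPM to 11.7, 8.26, 11.5 and 11.7 CPM under vehicle (log2 fold change 0.74 ± 0.22 SE, edgeR's adjusted p = 0.027) and from 5.63, 6.63 and 4.98 CPM to 12.2, 12.6 and 12.8 CPM under BD10-2 (1.13 ± 0.25 SE, edgeR's adjusted p = 0.00317). The vehicle call was lost without Mouse1509 (0.162), Mouse1522 (0.0794) or Mouse1524 (0.0934). In T41B slices it was not called (0.19 and 0.46, edgeR adjusted p = 0.539 and 0.0643), though the BD10-2 difference was called with the replicate block (0.00725). That difference was also called without the low-Thy1 library of Mouse1592 (0.51, edgeR adjusted p = 0.0264). The test of the genotype difference itself gave a log2 difference of -0.55 under vehicle and -0.67 under BD10-2, neither called (edgeR adjusted p = 0.605 and 1.0).

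Man2b1 was the only member that fell in all 4 stimulation comparisons, as did 1.02% of all genes. It fell from 39.8, 37.7, 37.8 and 45.9 CPM to 28.8, 28.3, 28.1 and 25.9 CPM in vehicle WT mice, and from 59.7, 78.3, 59.95 and 77.4 CPM to 36.2, 49.2, 40.0 and 42.7 CPM in vehicle T41B mice. All stimulated values lay below all sham values in each of the 4 comparisons. The log2 fold changes were -0.54, -0.71, -0.53 and -0.59 (edgeR adjusted p = 0.00246, 3.87e-05, 0.011 and 7.77e-05). The call in WT mice under BD10-2 was lost without Mouse1565 (0.107) or Mouse1571 (0.0554).

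Among the cathepsins Ctsd fell in T41B slices, from 423, 757, 547 and 620 CPM to 262, 502, 338 and 376 CPM under vehicle, where each mouse was lower but the group ranges overlap (log2 fold change -0.67 ± 0.18 SE, edgeR's adjusted p = 0.00732). In WT slices it went from 168, 156, 184 and 229 CPM to 161, 152, 160 and 173 CPM, which was not called (-0.19 ± 0.18 SE, edgeR's adjusted p = 0.538). Under BD10-2 the fall of Ctsd in T41B slices (-0.44 ± 0.16 SE, edgeR's adjusted p = 0.0441) was lost without Mouse1570 (0.0931), Mouse1572 (0.141) or Mouse1592 (0.146), and without only its library with low Thy1 (0.0748). Ctsh went from 3.68, 4.97, 5.85 and 6.35 CPM to 3.52, 2.31, 3.85 and 2.704 CPM in vehicle WT mice (-0.74 ± 0.25 SE, edgeR's adjusted p = 0.0511; 0.0103 with the replicate block). It fell from 9.88, 19.5, 14.99 and 16.1 CPM to 5.77, 9.59, 6.33 and 6.83 CPM in vehicle T41B mice (-1.09 ± 0.23 SE, edgeR's adjusted p = 0.00079). In WT mice under BD10-2 it fell by 1.14 on the log2 scale, a call lost without Mouse1565 (0.106). Of the other cathepsins Ctsl rose in vehicle WT slices (0.46) and Ctsb in BD10-2 T41B slices (0.40), and Ctsf fell in the latter (-0.23). Ctsa, Ctsc, Ctss and Ctsz were called in no stimulation comparison of the main fit, with values from -0.41 (Ctsc, WT under BD10-2) to 0.35. Without the low-Thy1 library of Mouse1592, Ctsc was called higher in T41B slices under BD10-2 (0.42, edgeR adjusted p = 0.0282). The call of Ctsl was lost without Mouse1509 (0.156), Mouse1513 (0.0701), Mouse1522 (0.0592) or Mouse1524 (0.0933), that of Ctsb without Mouse1564 (0.104), and that of Ctsf without Mouse1564 (0.0521) or Mouse1570 (0.0537).

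Lgmn was 52.7, 50.3, 57.0 and 71.0 CPM in stimulated WT and 70.2, 85.8, 84.5 and 82.1 CPM in stimulated T41B slices under vehicle. It fell in T41B mice (-0.46 ± 0.13 SE, edgeR's adjusted p = 0.00798), a call lost without Mouse1551 (0.0673). Grn, at 42.3, 63.1, 52.1 and 50.2 CPM in stimulated T41B slices under vehicle, was called there (-0.44 ± 0.16 SE, edgeR's adjusted p = 0.0439), but the call was lost without any one of the 4 mice of that group (edgeR adjusted p = 0.0921, 0.109, 0.052 and 0.139 without Mouse1510, Mouse1551, Mouse1553 and Mouse1579). Laptm5 fell under vehicle in WT (-0.59) and T41B slices (-0.57), calls lost without Mouse1509 (0.146), Mouse1513 (0.132) or Mouse1522 (0.0708), and without Mouse1551 (0.0732), Mouse1553 (0.0614) or Mouse1579 (0.0746). Mcoln1 fell in T41B slices under BD10-2 (-0.19), a call lost without Mouse1563 (0.143), Mouse1564 (0.211) or Mouse1570 (0.213).

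The score of the 10 glycosidases, averaged as above, differed by -0.13, -0.25, -0.17 and -0.21 between stimulated and sham slices in the 4 comparisons, and stimulated and sham groups did not overlap in any. Gusb fell in T41B mice, from 16.1, 22.1, 19.8 and 21.99 CPM to 9.22, 15.1, 11.2 and 11.5 CPM under vehicle (log2 fold change -0.77 ± 0.18 SE, edgeR's adjusted p = 0.00252). Under BD10-2 the fall of Gusb (-0.51 ± 0.16 SE, edgeR's adjusted p = 0.0192) was lost without Mouse1572 (0.0708) or Mouse1592 (0.0522). Naglu fell in both T41B comparisons (-0.79 and -0.61), as did Idua (-0.39 and -0.42), and Hexa in that under vehicle (-0.41). The fall of Idua under vehicle was lost without Mouse1551 (0.197) or Mouse1579 (0.108), and that of Hexa without Mouse1551 (0.0714), Mouse1553 (0.0798) or Mouse1579 (0.0669). Gla, the alpha-galactosidase, was the only glycosidase called higher: it rose in vehicle WT, vehicle T41B and BD10-2 T41B slices by 0.48, 0.69 and 0.60. The first of these calls was lost without Mouse1509 (0.0886), Mouse1513 (0.0888) or Mouse1524 (0.101). Neu1 was not called, and its 4 estimates were also above 0 (0.033 to 0.095).

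Ids was 231, 252, 236 and 280 CPM in stimulated WT and 181, 173, 223 and 215 CPM in stimulated T41B slices under vehicle. Under BD10-2 it was 180, 208 and 226 CPM in WT and 176, 159, 187, 172 and 189 CPM in T41B mice. It fell under BD10-2 in WT (-0.47 ± 0.12 SE, edgeR's adjusted p = 0.0115) and T41B mice (-0.33 ± 0.09 SE, edgeR's adjusted p = 0.0101), and the WT call was lost without Mouse1565 (0.0746), Mouse1571 (0.0771) or Mouse1590 (0.069). Under vehicle the values of -0.24 and -0.26 were not called in the main fit, and they were called with the replicate block (0.0285 and 0.0176). All 4 genotype and all 4 stimulation estimates of Ids were negative.

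Of the lipid handling genes Npc2 and Lipa rose in T41B slices under BD10-2. Npc2 went from 55.7, 62.7, 70.7, 59.6 and 64.2 CPM to 104, 135, 72.8, 85.1 and 64.7 CPM (log2 fold change 0.56 ± 0.15 SE, edgeR's adjusted p = 0.00818). Lipa went from 13.7, 15.03, 12.02, 11.8 and 14.9 CPM to 22.3, 17.7, 18.3, 16.8 and 13.5 CPM (0.38 ± 0.11 SE, edgeR's adjusted p = 0.0124), a call lost without Mouse1564 (0.0639) or Mouse1570 (0.0719). In both genes the lowest stimulated value is that of Mouse1592, and for each it overlaps the sham values. Its library with low Thy1 had 51.3 CPM of Npc2 and 11.1 of Lipa, and the other 73.3 and 14.9 CPM, scaled by their own totals.

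**Figure D4:**
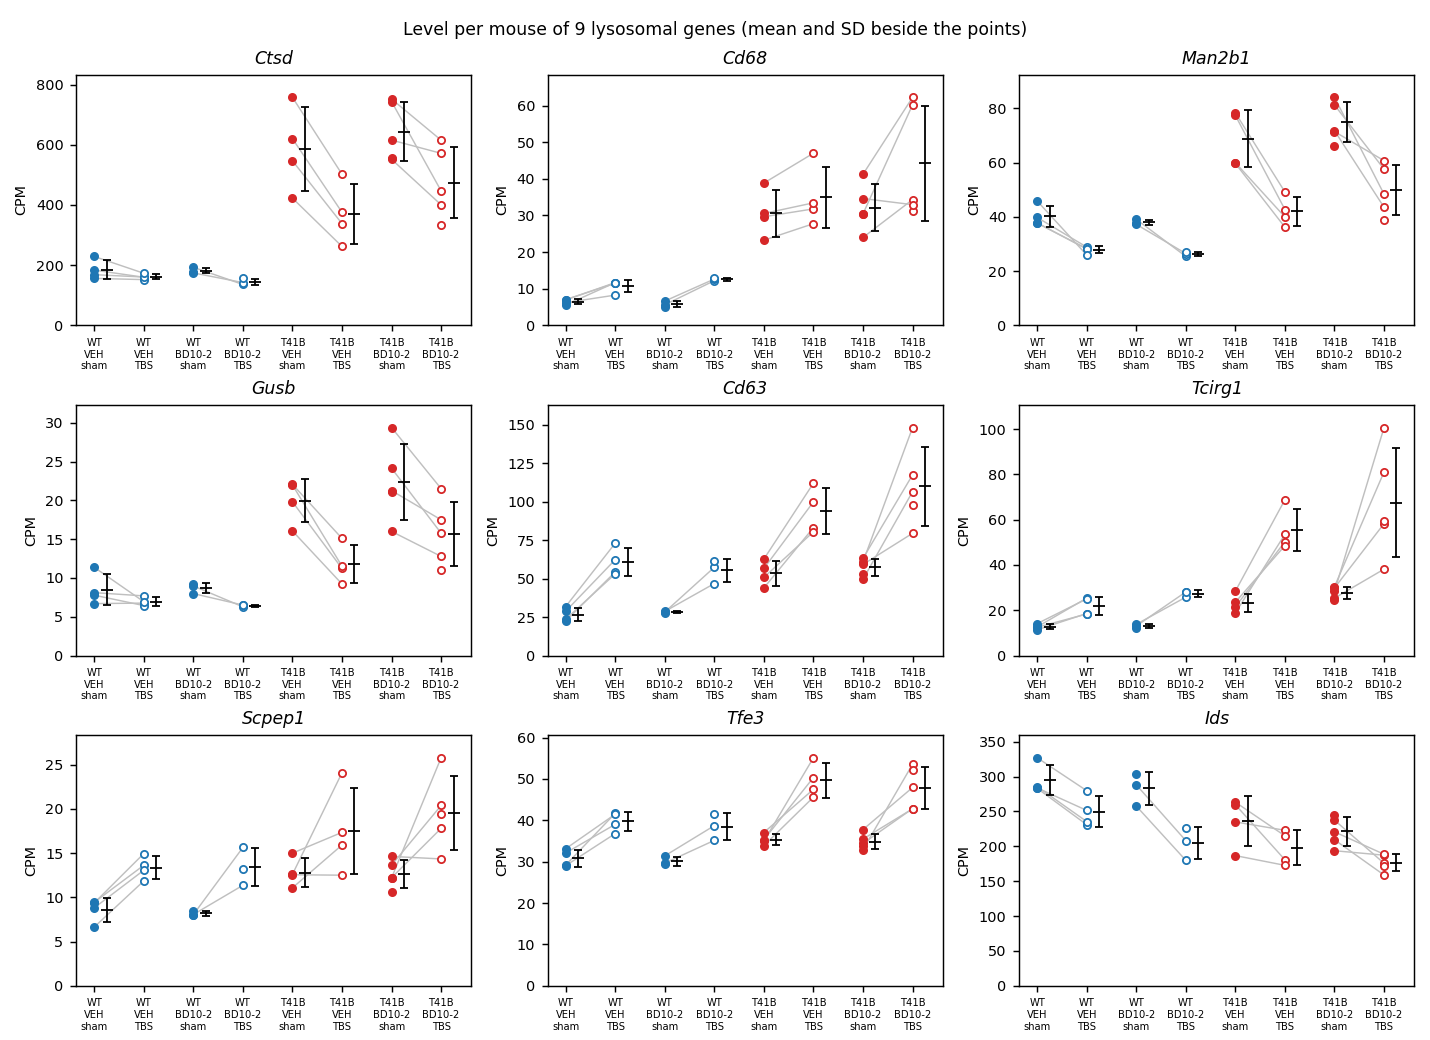
Level in CPM of 9 genes in each mouse (points) by group, with mean and SD beside the points, axes from 0. Filled points are sham and open points stimulated slices, blue is WT and red T41B, and grey lines join slices of one mouse. Ctsd, Man2b1 and Gusb were higher in T41B in all 4 comparisons, and Man2b1 fell after stimulation in all 4. Ctsd and Gusb were called lower in T41B mice and not in WT mice, but the genotype difference in stimulation response was called for neither. In the 14 mice with both slices, Ctsd was lower after stimulation in 14 and Gusb in 13. Cd63 and Tcirg1 were called higher in all 8 comparisons, and Ids was called lower in 1 genotype and 2 stimulation comparisons.

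Other lysosomal genes were tested from a list of 81, of which 78 passed the filter. Acp5, Cst7 and Ctse passed only through T41B mice and are left out between genotypes. In T41B against WT mice 9, 4, 9 and 12 of the other 75 were higher and 0, 1, 1 and 2 lower in the 4 comparisons, with medians of 0.08, 0.01, 0.04 and 0.03 on the log2 scale. The higher calls are 12%, 5.33%, 12% and 16% of the 75, beside 5.0%, 4.74%, 4.31% and 8.19% of all genes. Of these higher calls 5, 1, 7 and 7 were among 19 other hydrolases. Acp5 and Ctse passed only through 1 procedure, and of the other 76 genes 5, 7, 2 and 5 rose after stimulation (6.58%, 9.21%, 2.63% and 6.58%), beside 8.21%, 11.7%, 6.29% and 13.3% of all genes. Another 4, 9, 3 and 10 fell (5.26%, 11.8%, 3.95% and 13.2%), beside 4.1%, 9.83%, 2.58% and 9.52% of all genes. Of 10 genes that sort proteins to the lysosome, 1 was higher and 2 were lower in T41B, all in BD10-2 stimulated slices.

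BD10-2 was compared with vehicle within each genotype and procedure. None of the 45 genes was called by edgeR in any of the 4 comparisons, where 0.0% of all genes were called, and DESeq2 also called 0 of the 45. Of all genes DESeq2 called 0, 24, 0 and 0 in WT sham, WT stimulated, T41B sham and T41B stimulated slices. At an unadjusted p under 0.05, edgeR gave 0, 4, 0 and 13 of the 45 genes in WT sham, WT stimulated, T41B sham and T41B stimulated slices, beside 1.92%, 5.61%, 2.21% and 3.9% of all genes. Of these 13, 6 were cathepsins, and all 13 had positive estimates. The largest was Ctsh, at 5.77, 9.59, 6.33 and 6.83 CPM under vehicle and 16.0, 12.2, 9.07, 7.79 and 10.9 CPM under BD10-2. Its log2 difference was 0.66 with a 95% interval of 0.21 to 1.102 (edgeR adjusted p = 1.0). For Ctsd the interval was 0.01 to 0.71. The cathepsin score differed by 0.31 with overlapping groups, and the microglia marker score by 0.44, also with overlap, where 10 of 12 microglia markers had an unadjusted p under 0.05 and 0 were called. Since no batch contains both treatments, drug and batch cannot be told apart.

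The interaction tests asked whether the stimulation difference itself depends on genotype or treatment. None of the 45 genes was called by edgeR or DESeq2 in the 3 tests (0.0% of all genes by edgeR). Of all genes DESeq2 called 1 for genotype under vehicle, 18 for genotype under BD10-2 and 1 for treatment in T41B mice. At an unadjusted p under 0.05 there were 0 of 45 for genotype under vehicle, 3 for genotype under BD10-2 (Cd68, Ctsc and Ctsf) and 0 for treatment in T41B mice, beside 8.64%, 4.34% and 2.7% of all genes. The 3 genes are near that share. For Ctsd the difference of the stimulation effect between T41B and WT mice under vehicle was -0.48 (95% interval -0.99 to 0.04), and for Tcirg1 it was 0.47 (-0.07 to 1.02). Both intervals include 0.

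CACGTG occurred in the promoter window of genes with and without calls. Of the 13 genes that hold it, 7 were higher in T41B at least once, as were 17 of the 27 without it. Of the 13, 2 rose and 5 fell after stimulation at least once, and of the 27 without it 7 rose and 7 fell. Of all genes tested 10.7% were higher in T41B at least once, and 16.8% rose and 15.7% fell after stimulation at least once. Among the printed stretches, Ctsd holds the letters and was higher in T41B, as were Man2b1, Cd63 and Tcirg1, which do not. Atp6v1a holds them and was called in neither set by the main fit. With the replicate block Atp6v1a was called lower in stimulated T41B slices under vehicle. These counts are a description of 40 genes and were not tested.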

How the data were processed

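Total RNA (200 ng) from 36 slice libraries of 18 mice was made into stranded libraries after ribosomal RNA depletion, per the labels' protocols. The deposited values are RSEM expected counts per gene, made by the authors; the submitters' processing notes name cutadapt 1.8.1, STAR 2.7.6a, RSEM 1.3.1, featureCounts 1.6, SAMtools 1.11 and the builds GRCm38.p6 and mm10, without roles. The annotation release and the strand setting are not given in the sources used here, so overlapping and antisense genes could not be told apart. Of the expected counts 5.69% had decimals and were rounded to whole numbers. Symbols were matched for 55154 identifiers and not for 267.

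Libraries with equal mouse and procedure labels (4 pairs) were added, which gave 32 samples. edgeR 4.0.16 (R 4.3.3) kept 19478 genes (filterByExpr, minimum count 10), with TMM factors of 0.91 to 1.063. All 8 groups entered 1 quasi-likelihood fit, the main fit, with Benjamini-Hochberg adjustment over all genes. Genes were called at an adjusted p under 0.05. Atp6v0d2 was left out of the tests, and so was any listed gene that reached the filter (0.553 CPM in 3 samples) through only 1 side of a comparison. The fits were tested on simulated data. CPM use the TMM-adjusted total; exon lengths are from GENCODE M21 and promoters from RefSeq.

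Sham and stimulated slices carry the same mouse number in 14 mice. Deviations from group means correlated at 0.19 on average within a mouse and at -0.05 over 52 pairs of different mice. The paired alternative used the mouse as a replicate block, fixed within mice and random (limma 3.58.1, voom) between mice. Other alternatives were DESeq2 1.42.0, RLE factors, no low-count filter, batch as a term, only the groups compared, the first of 2 libraries, a pseudocount of 0.1 for scores, each mouse left out, and, chosen after seeing the data, omission of the low-Thy1 library of Mouse1592. Each of 8 batches named in the labels holds 1 treatment. Batch E holds only WT mice (Mouse1509 and Mouse1513), and batches G (Mouse1551 and Mouse1553) and H (Mouse1563 and Mouse1564) only T41B mice. Genotype and batch are thus partly confounded.

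The members and all gene lists were chosen with earlier results of these data known. Genes shown mouse by mouse are those called in the most comparisons, 2 per role. Figures used matplotlib 3.10.9 and summaries pandas 2.3.3 in Python 3.11.15.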

Additional observations from a re-analysis of the deposited data

Results flagged for a closer look

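In 3 of 120 groups of 4 or 5 mice examined, 1 mouse lay far from the others by Dixon's criterion, which chance meets in about 1 in 20 groups. Cd68 was 8.26 CPM in the stimulated slice of Mouse1513 (WT, vehicle), where the other 3 mice had 11.5 to 11.7 CPM. Ids was 327 CPM in the sham slice of Mouse1524 (WT, vehicle), against 283 to 286 CPM in the others. Tfeb was 9.31 CPM in the stimulated slice of Mouse1563 (T41B, BD10-2), against 11.9 to 12.5 CPM in the others.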

How the results depend on the processing

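Of the counts of called genes and the role scores, 264 values under an alternative stayed within 1.5 times the main count or 1 SD of the main score, and 16 did not. The 264 include each score repeated with all listed members, which is the main score itself and could not move. They also include the treatment and interaction counts, which were 0 in the main fit. In WT slices under vehicle stimulation gave 9 calls, 18 with the replicate block (20.1% of all genes called), 15 with batch as a term (16.6%), and 5 to 6 without 1 mouse (6.38% to 8.84%). In T41B slices under vehicle it gave 15 calls, 8 when only the groups compared were fitted (14.6%), and 9 to 13 without 1 mouse (13.6% to 18.8%). In WT slices under BD10-2 it gave 8 calls, 13 when only the groups compared were fitted (11.4%), and 3 to 8 without 1 mouse (3.82% to 6.58%). Genotype in stimulated slices under vehicle gave 19 calls and 11 with batch as a term (3.92%). With a pseudocount of 0.1 the pump score differences between T41B and WT were 0.57, 0.40, 0.62 and 0.63, and the difference of all 46 genes in BD10-2 sham slices was 0.63. For the 31 genes called in at least 1 comparison, 1748 values under an alternative kept their call, 203 lost it and 0 reversed. Apart from omitted mice and the low-Thy1 library, batch as a term ended 17 calls and the paired fits 7, all given beside the results. Fitting only the groups compared ended 24 calls. These were those of Laptm5 after stimulation in WT slices under vehicle, of Ctsd, Lgmn, Hexa, Laptm5, Idua, Grn and Scpep1 after stimulation in T41B slices under vehicle, of Ctsd, Gusb and Mcoln1 in T41B slices under BD10-2, of Ctsa, Lamp1, Mcoln1, Scpep1 and Tpp1 between genotypes in vehicle sham slices, of Tfe3 in vehicle stimulated slices, and of Gla, Lamp1, Mcoln1, Naglu, Scarb2, Scpep1 and Tfe3 in BD10-2 stimulated slices. Using the first of 2 libraries ended 11 calls (Mcoln1, Scarb2, Scpep1, Ctsb, Grn, Cd68 and Laptm5, some in more than 1 comparison), no low-count filter 11 (Mcoln1, Tfe3, Tfeb, Tpp1, Ctsd, Ctsf, Grn, Idua and Scpep1, likewise), RLE factors 3 (Grn, Ctsd and Mcoln1 after stimulation) and DESeq2 2 (Grn and Mcoln1 after stimulation). The paired fit changed no other call. Atp6v0d2 had 0 to 2 counts in WT samples, and the part of depth in these low counts was not tested.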

Other observations

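Genes that act on or beside the cathepsins showed differences of their own. Cst7, which encodes cystatin F, an inhibitor of cysteine cathepsins, was 0.339 ± 0.167 CPM in WT and 30.4 ± 8.88 CPM in T41B sham slices under vehicle (SD, n = 4 each). The WT samples of that group held 3 to 9 counts, and Cst7 passed the low-count filter only through T41B mice, so the difference is a description with no test. Cst7 was not called after stimulation in any comparison. Cstb, a cytosolic cathepsin inhibitor, rose after stimulation in all 4 comparisons, by 1.29, 1.03, 1.27 and 1.45 on the log2 scale. In vehicle WT mice Cstb was 6.13 ± 1.09 CPM in sham and 15.1 ± 4.10 CPM in stimulated slices (SD, n = 4 each). Of the other 3 inhibitors tested, 2, 1, 1 and 2 were higher in T41B mice, and of all 4 tested 1 rose after stimulation in each comparison.

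Slc11a1, a metal transporter of phagocyte lysosomes, was higher in T41B in the 4 comparisons by 1.95, 2.61, 1.87 and 2.40 on the log2 scale, and rose after stimulation in T41B mice (0.93 under vehicle and 1.49 under BD10-2). In WT mice Slc11a1 was not called (0.27 and 0.96), and the interaction was not called either (edgeR's adjusted p = 0.675 and 1.0). Fnip2, a partner of folliculin in nutrient signalling at the lysosome, rose after stimulation in all 4 comparisons (0.63, 0.64, 0.79 and 1.003). Arsb, a sulfatase, fell in all 4 (-0.24, -0.25, -0.34 and -0.20).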
